A study of Monodelphis domestica with 2 samples.

Results

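Potassium channel genes were described in the primary visual cortex of the opossum, taken as every gene whose symbol in the deposited gene list begins with KCN. The rule found 74 genes among 30800, of which 11590 carried a symbol. Messenger RNA was measured by single-nucleus RNA sequencing (snRNA-seq) in 2 adult male gray short-tailed opossums (Monodelphis domestica), a marsupial, aged 1.5 years (animal 1) and 2 years (animal 2). Neither animal was treated, and they form 1 group, so every comparison below is between kinds of cell within the same animals. Area 17, the primary visual cortex (V1), was dissected from both hemispheres and pooled by animal. Nuclei were sorted on the DNA dye Draq5 and loaded into 2 wells per animal, which gave libraries 1A, 1B, 2A and 2B. The authors assigned 32764 of the 36558 barcodes to 18 subclasses. The glutamatergic subclasses are the intratelencephalic IT_A, IT_B, IT_C and IT_D, the pyramidal tract L5PT, the near-projecting L5NP, the corticothalamic L6CT, and L6b. The GABAergic subclasses are Pvalb, Sst, Vip, Lamp5 and Frem1, and the non-neuronal ones are astrocytes, oligodendrocyte precursor cells (OPC), oligodendrocytes, microglia and endothelial cells.

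Potassium channels let potassium ions leave the cell and so set its resting potential, end the action potential and limit how fast a neuron can fire. Voltage-gated (Kv) channels assemble from alpha subunits of the same subfamily and open on depolarization. KCNQ and ether-a-go-go (KCNH) channels form subfamilies of their own, calcium- and sodium-activated channels open when those ions enter the cell, inward rectifiers (KCNJ) and tandem-pore channels (KCNK) hold the resting potential, and auxiliary subunits alter the gating and trafficking of the others. In cortex, fast-spiking parvalbumin interneurons are known for Kv3 channels and astrocytes for the inward rectifier KCNJ10, which takes up extracellular potassium.

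Among the members were 7 Kv1 (KCNA), 2 Kv3 (KCNC), 2 Kv4 (KCND), 9 electrically silent Kv (KCNF, KCNG, KCNS, KCNV), 4 KCNQ, 7 KCNH, 9 calcium- or sodium-activated (KCNM, KCNN, KCNT), 12 KCNJ, 11 KCNK and 10 auxiliary (KCNAB, KCNE, KCNIP) genes. Of 88 KCN symbols in RefSeq's annotation of the opossum assembly mMonDom1, 72 were among them. The other 16 had no row under their symbol and were not analysed here, among them KCNC2, KCNIP4 and KCNMA1. A level below is in CPM, the depth-normalized count of a gene: its unique molecular identifiers (UMIs), summed over the nuclei of 1 subclass of 1 animal, divided by the UMIs of all genes in that sum and multiplied by 1e+06. Values are given as animal 1 and then animal 2. Transcript lengths were not used, so levels are compared between cell types for 1 gene and never between genes.

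Libraries held from 55625042 to 69706055 UMIs, and the sums from 48514 UMIs in the 29 endothelial nuclei of animal 1 to 53793396 in IT_A of animal 2. A count of 0 therefore still allows 61.8 and 51.8 CPM in endothelial cells (3 counts of the total, counting error only), and those cells are left out of rankings. Pairs of libraries shared 16 to 30 barcodes. The labels were checked against defining markers. AQP4 and GFAP were highest in astrocytes, PDGFRA in OPC, MOG in oligodendrocytes, CSF1R in microglia, CLDN5 in endothelial cells, and SST, VIP, LAMP5 and FOXP2 in Sst, Vip, Lamp5 and L6CT. For other labels the markers were absent or not particular: PVALB had no symbol, FREM1 was as high in Lamp5 as in Frem1, BCL11B and FEZF2 were as high in L5NP as in L5PT, the L5NP markers HTR2C and TSHZ2 were low in L5NP (5.7 to 13.2 CPM), and the L6b marker CCN2 was at 1.8 and 0 CPM in L6b. Those subclasses carry the authors' names here. Some neuronal RNA was found in every glial sum. The 4 glutamatergic markers with a symbol summed to between 43.3 and 53.7 CPM in non-neuronal subclasses other than endothelial cells, against 412 to 937 CPM in glutamatergic neurons, and the 4 GABAergic markers to between 17.4 and 29.8 CPM there and 8.13 to 12.3 CPM in glutamatergic neurons, against 682 to 1763 CPM in GABAergic ones. Of single glutamatergic markers, NEUROD2 reached 8.83% and TBR1 5.71% of its highest neuronal level in glia other than endothelial cells, and levels of a member within that range cannot be told apart from that background.

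Of the 74 members, 1 (KCNV2) had no UMI in any labelled nucleus and 13 had 1 to 100. In all, 59 passed the filter on low counts in at least 1 fit, which leaves 15 untested: KCNA7, KCNA10, KCNG4, KCNH6, KCNJ1, KCNJ8, KCNJ11, KCNJ13, KCNJ15, KCNK5, KCNK6, KCNK15, KCNK16, KCNK17 and KCNV2. A level of at least 10 CPM in some subclass of both animals was reached by 50 members. Of these, 23 were highest in a glutamatergic subclass, 18 in a GABAergic and 9 in a non-neuronal one, by the mean of both animals. The highest subclass was the same in both animals for 33, and for 32 it lay above the second without overlap between the animals. The same counts over all genes are not given here, so these are not read as a trait of the members.

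**Figure D1:**
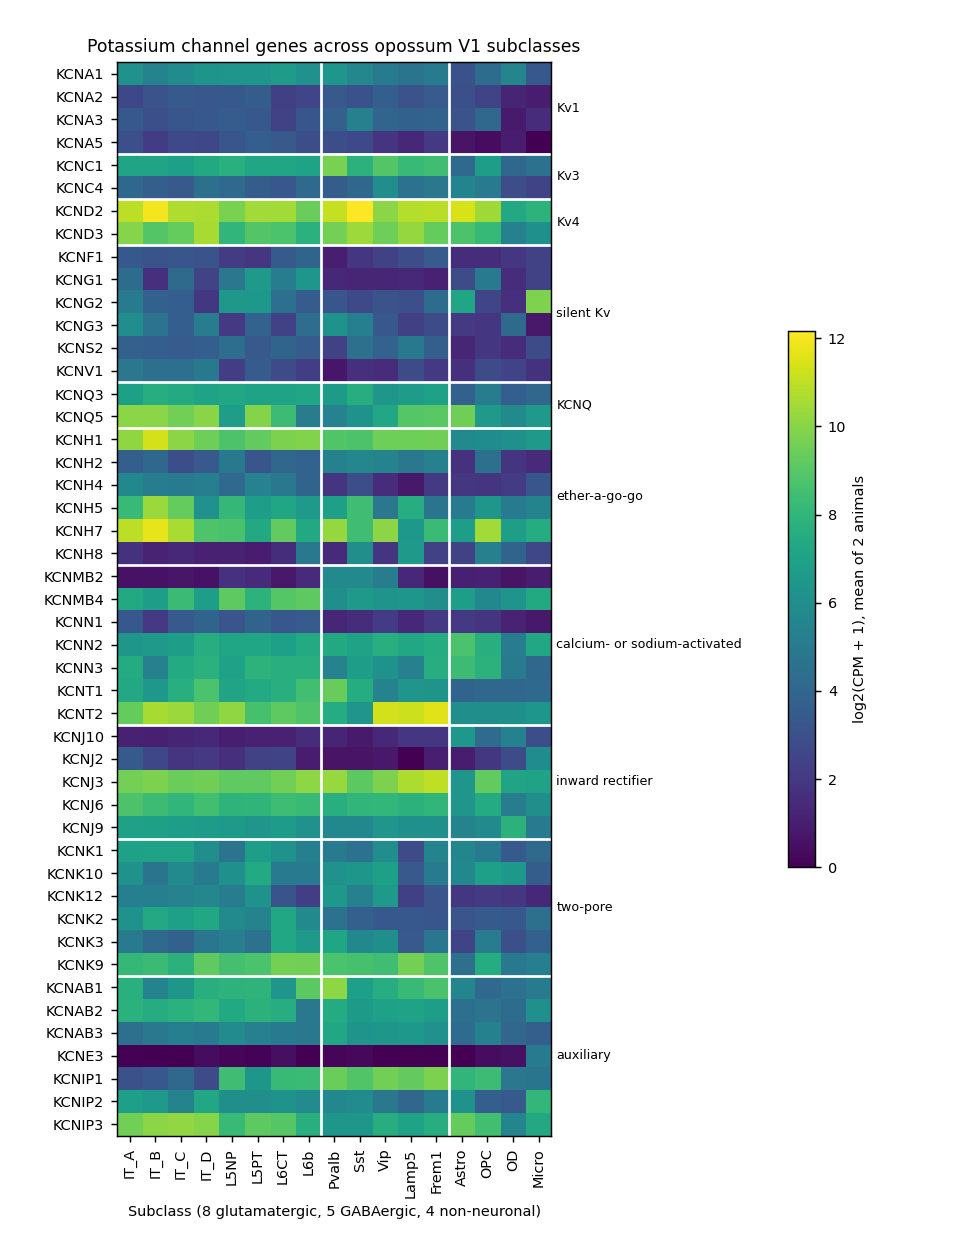
Heat map of 47 of the 50 potassium channel genes that reached 10 CPM (rows) in 17 subclasses (columns, endothelial cells left out), colored by log2(CPM + 1) averaged over 2 animals (Astro stands for astrocytes, OD for oligodendrocytes and Micro for microglia). Rows cannot be compared with each other because transcript lengths differ. Each row shows in which cells its gene is high, such as KCNJ10 in astrocytes, KCNE3 in microglia and KCNC1 in Pvalb neurons.

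The members at their highest level in each subclass are given by the mean of the animals. Pvalb neurons held 5 (KCNC1, KCNT1, KCNG3, KCNAB1, KCNAB3), as did Sst neurons (KCND2, KCNA3, KCNH2, KCNMB2, KCNQ3), microglia (among them KCNG2, KCNIP2, KCNJ2 and KCNE3) and IT_B (among them KCNH1, KCNH5, KCNH7 and KCNK2). IT_D held 4 (KCNAB2, KCND3, KCNN1, KCNV1). Frem1 (KCNT2, KCNIP1, KCNJ3), IT_A (KCNQ5, KCNJ6, KCNH4), L5PT (KCNG1, KCNK10, KCNA5), L6CT (KCNK3, KCNK9, KCNA1), Vip (KCNC4, KCNA2, KCNK12) and astrocytes (KCNJ10, KCNN2, KCNN3) each held 3. Lamp5 (KCNH8, KCNS2), IT_C (KCNIP3, KCNK1) and L6b (among them KCNF1) each held 2, L5NP 1 (KCNMB4), oligodendrocytes 1 (KCNJ9) and OPC 0. For 17 of the 50 the highest subclass changed with the animal, for example KCNQ5, KCNIP1, KCNK9 and KCNH2.

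The first comparison asks how the neurons that excite differ from those that inhibit. Of 57 members tested, 27 were higher in glutamatergic neurons, where 22.0% of all genes were, and 14 were lower, where 20.8% of all genes were. The median log2 fold change was 0.46 over the members and -0.01 over all 16156 genes. The tests here and below are edgeR quasi-likelihood tests on the sums with Benjamini-Hochberg adjustment over all genes, with n = 2 animals in every subclass. The authors had clustered the nuclei on these very counts to obtain the subclasses, so the p-values set a difference against the spread between 2 animals and do not test that the groups exist.

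Members of the silent Kv family, whose subunits do not conduct on their own and alter the channels of other Kv subunits, were higher in glutamatergic neurons for 5 of 7 tested and lower for none. KCNG1 averaged 35.2 and 34.7 CPM over glutamatergic subclasses and 0.555 and 2.32 over GABAergic ones (log2 fold change 3.90 ± 0.25 SE, adjusted p = 1.9e-11). IT_B, at 2.38 and 2.05 CPM, lay within the GABAergic range, and the size depends on the animal, since Vip, Lamp5 and Frem1 of animal 1 held no KCNG1 UMI, and the log2 fold change was 7.66 in animal 1 alone and 3.21 in animal 2 alone. KCNV1 averaged 16.1 and 14.7 against 2.21 and 3.38 CPM (2.48 ± 0.19, adjusted p = 5.5e-10). Its highest glutamatergic levels were in the IT subclasses, 18.6 to 30.5 CPM, and its lowest in L5NP and L6b, 1.98 to 5.45 CPM, which is within the range of GABAergic neurons.

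Both Kv3 members and both Kv4 members were lower in glutamatergic neurons. KCNC1, a Kv3 subunit that allows rapid repolarization and high firing rates, averaged 158 and 140 CPM against 441 and 435 CPM (log2 fold change -1.32 ± 0.05, adjusted p = 9.4e-15). In each animal the highest glutamatergic subclass, L5NP at 220 and 206 CPM, lay below the lowest GABAergic one, Sst at 240 and 215 CPM. KCND2, a Kv4 subunit of the fast-inactivating dendritic A-type current, differed by less (-0.37 ± 0.06, adjusted p = 1.6e-05) and overlapped widely. Sst (4524 and 4687 CPM) and IT_B (3968 and 3918 CPM) were its highest subclasses, in different classes.

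The ether-a-go-go family split: 4 of 6 tested were higher in glutamatergic neurons and 2 lower. KCNH4 averaged 29.7 and 33.4 against 2.69 and 3.29 CPM (3.72 ± 0.17, adjusted p = 6.3e-14). Every glutamatergic subclass, at 12.7 to 49.7 CPM, was above every GABAergic one, at 0.775 to 7.33 CPM. KCNH8, of the same ELK branch of the family, went the other way (-2.07 ± 0.27, adjusted p = 1.3e-06), at 6.41 and 3.23 against 36.9 and 28.1 CPM. Its GABAergic mean rested on Lamp5 (98.5 and 83.7 CPM) and Sst (78.9 and 46.8 CPM), since Pvalb, Vip and Frem1 were at 1.56 to 4.61 CPM. KCNH2, the ERG channel, was lower in glutamatergic neurons (-1.60 ± 0.15, adjusted p = 1.5e-08), at 16.2 and 11.3 against 41.5 and 37.6 CPM.

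Among tandem-pore channels, which carry leak current, 2 of 6 tested were higher in glutamatergic neurons. KCNK2, the mechanically and lipid-gated TREK channel, averaged 105 and 101 against 12.4 and 12.6 CPM (3.08 ± 0.17, adjusted p = 3.0e-12), and the lowest glutamatergic value, 33.7 CPM in L6b of animal 2, was above the highest GABAergic one, 26.1 CPM in Pvalb of animal 1. KCNK1 differed by 1.61 ± 0.08 (adjusted p = 3.0e-13). For KCNK9, an acid-sensitive TASK channel, the difference was -0.01 ± 0.06 (adjusted p = 0.99), although its subclasses spanned 216 to 873 CPM. The KCNQ family, which carries the muscarine-sensitive M current, had 3 of 4 higher in glutamatergic neurons and none lower, led by KCNQ5 (1.45 ± 0.10, adjusted p = 1.5e-10). The classes overlapped in KCNQ5, since L6b had the lowest mean of all subclasses ranked, 35.3 CPM.

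Auxiliary and beta subunits split as well. KCNIP3 and KCNIP1 belong to 1 family of calcium-binding Kv4 partners and moved in opposite directions. KCNIP3 averaged 691 and 698 CPM in glutamatergic and 137 and 137 CPM in GABAergic subclasses (2.30 ± 0.07, adjusted p = 1.7e-16). KCNIP1 averaged 133 and 135 CPM against 680 and 683 CPM (-3.70 ± 0.11, adjusted p = 5.5e-17). Within the glutamatergic class KCNIP1 divided the subclasses again, from at most 16.4 CPM in the 4 IT subclasses to 57.8 and 116 CPM in L5PT, 310 and 375 in L5NP, 293 and 285 in L6CT, and 372 and 260 in L6b. Those levels in IT_A, IT_B and IT_C, 6.99 to 16.4 CPM, are near the level that the GABAergic markers reach in glutamatergic sums. KCNAB3, a cytoplasmic Kv beta subunit, was lower in glutamatergic neurons (-1.38 ± 0.08, adjusted p = 2.9e-12), at 32.8 and 35.7 against 90 and 102 CPM. Of the beta subunits of the large-conductance calcium-activated (BK) channel, KCNMB4 was higher in glutamatergic neurons (1.89 ± 0.07, adjusted p = 2.5e-15) and KCNMB2 lower (-3.18 ± 0.83, adjusted p = 0.0037), at 1.46 and 0.745 against 34.5 and 24.3 CPM. The KCNMB2 difference was -4.14 in animal 1 alone and -1.77 in animal 2 alone, and the gene was near 0 in Lamp5 and Frem1 as well.

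**Figure D2:**
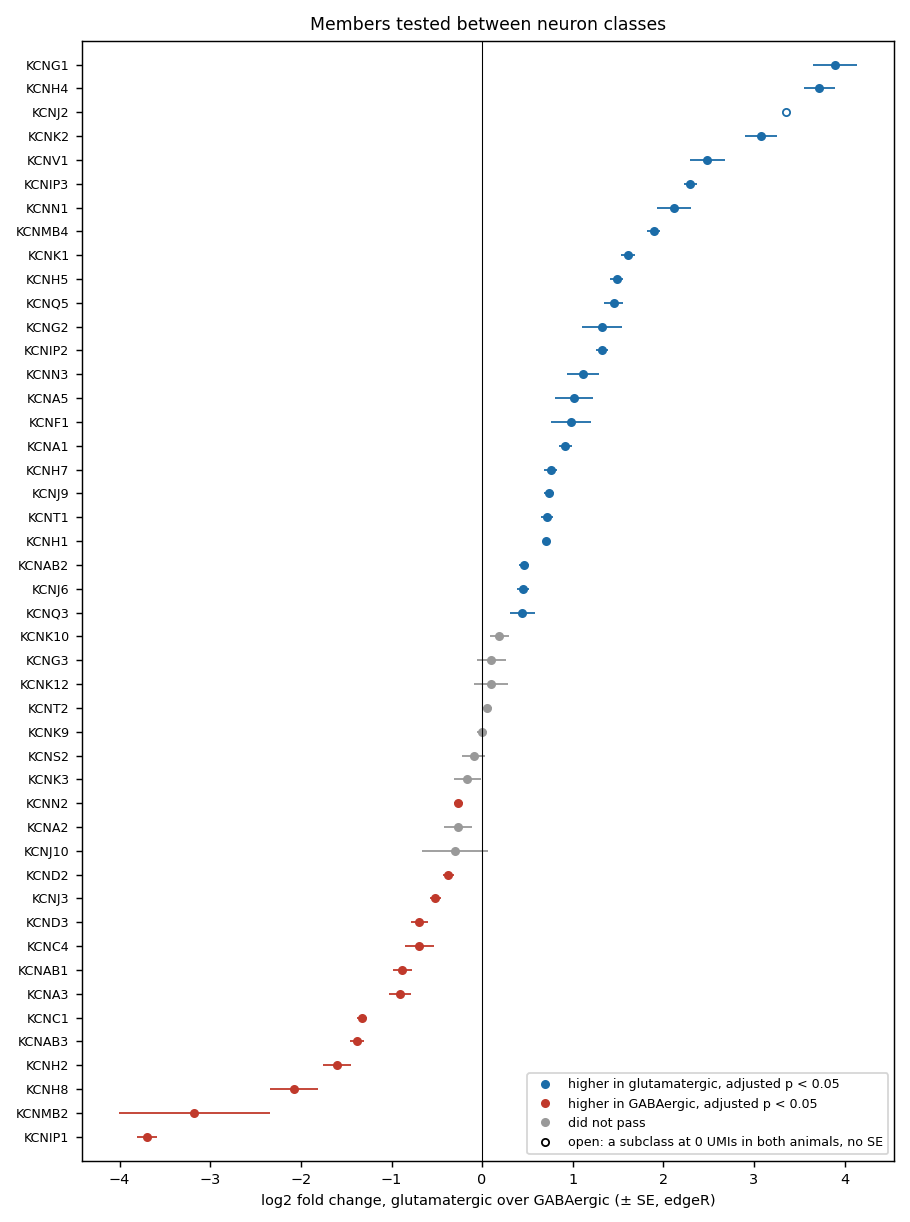
Log2 fold change (x axis, glutamatergic minus GABAergic, ± SE of the edgeR fit over 2 animals) of 46 members tested in neurons that reached 10 CPM in a subclass of both animals, one row per gene. The open marker without an error bar, KCNJ2, had a subclass with 0 UMIs in both animals, so its value rests on the prior count. KCNG1, KCNH4 and KCNK2 lie far to the right and KCNIP1 and KCNMB2 far to the left.

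The next question is how members vary within each neuronal class. Among the 8 glutamatergic subclasses 47 of 57 members differed, where 40.0% of all genes did, and all 6 ether-a-go-go, all 6 tandem-pore and all 5 Kv1 members tested were among them. IT_B was the highest subclass for 3 ether-a-go-go members. KCNH7, an ERG channel, ran from 3410 and 3373 CPM in IT_B through 2116 and 1924 in IT_A and 1719 and 1416 in IT_C to 171 and 165 in L6b (joint adjusted p = 3.5e-14). KCNH5, an EAG channel, fell from 1207 and 1356 CPM in IT_B to 65.1 and 74.6 in IT_D (joint adjusted p = 7.6e-15). KCNH1, the other EAG member, was at 2653 and 2642 CPM in IT_B and at 409 to 1177 in every other glutamatergic subclass. The 3 genes shared their highest subclass but not the rest of the order, as the IT_D levels show.

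Deep-layer subclasses held other members. KCNMB4 was highest in L5NP (555 and 594 CPM), L6b and L6CT and lowest in IT_D and IT_B, at 106 to 120 CPM. KCNK3, a TASK channel, was at 161 and 149 CPM in L6CT and 10.4 and 15.0 in IT_C (joint adjusted p = 1.2e-09), and L6b stood between, with animals as far apart as 123 and 69.4 CPM. KCNAB1, a Kv1 beta subunit, ran from 654 and 444 CPM in L6b to 45.6 and 43.6 in IT_B (joint adjusted p = 2.7e-08). KCNQ5 was at 714 to 1177 CPM in the IT subclasses and L5PT, at 328 and 310 in L6CT, at 119 and 97.7 in L5NP and at 30.9 and 39.7 in L6b. KCNK12, a halothane-inhibited tandem-pore subunit, ranged from 72.0 and 75.7 CPM in L5PT to 3.63 and 3.97 in L6b (joint adjusted p = 2.4e-08). KCNH8 was at 41.8 and 13.9 CPM in L6b and at most 2.58 in every other glutamatergic sum (joint adjusted p = 9.8e-06), and this call was lost without the small subclasses, L6b among them. KCNJ5, a subunit of the G-protein-gated inward rectifiers, was found in L6b (21.8 and 7.93 CPM), L6CT (11.3 and 8.95) and L5NP (6.58 and 8.96), and at no more than 1.76 in the other glutamatergic subclasses. The L6b values rest on few nuclei, 56 in animal 1.

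L5PT neurons project out of the cortex to subcortical targets. Against the other glutamatergic subclasses, 14 members were higher in L5PT, where 10.4% of all genes were, and 10 lower, where 6.08% were. The silent subunit KCNG1 was at 105 and 78.6 against 25.2 and 28.5 CPM (log2 fold change 2.59 ± 0.17, adjusted p = 2.0e-10), and KCNG2 at 105 and 70.5 against 28.7 and 22.2 CPM (2.48 ± 0.21, adjusted p = 1.4e-08). KCNG1 was also high in L6b, 76.3 and 89.3 CPM, and KCNG2 in L5NP, 102 and 78.8 CPM, so neither was confined to L5PT. KCNK10, of the TREK group, was at 165 and 185 CPM, more than in any other subclass (2.12 ± 0.13, adjusted p = 5.3e-11). KCNK12 (1.82 ± 0.18, adjusted p = 1.0e-07) and KCNQ5 (1.42 ± 0.15, adjusted p = 2.5e-07) were also called higher, although the KCNQ5 level of L5PT, 1107 and 827 CPM, was below that of IT_A, 1164 and 966 CPM, in both animals.

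Lower in L5PT were KCNH7, at 181 and 155 against 1253 and 1208 CPM (-2.19 ± 0.15, adjusted p = 5.6e-10), KCNK2 (-1.18 ± 0.23, adjusted p = 0.00081), KCNH5 (-1.14 ± 0.12, adjusted p = 1.9e-07) and the sodium-activated channel KCNT2, at 429 and 365 against 876 and 942 CPM (-1.01 ± 0.10, adjusted p = 2.0e-07). L5PT and L6b overlapped in KCNH7, so L5PT was not the sole low subclass. Without IT_D and L6b, the subclasses with under 100 nuclei in an animal, KCNH5 moved to -1.79 and KCNH7 to -2.81. KCNK3 was called lower by a narrow margin (-0.66 ± 0.22, adjusted p = 0.0497). It was at 29.8 and 15.3 CPM in L5PT, its log2 fold change was -0.20 in animal 1 alone and -1.23 in animal 2 alone, and the call was lost without the small subclasses (adjusted p = 0.17).

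IT_A was compared with IT_C, between which the authors described a transcriptomic axis. Between them 9 members were higher in IT_A, where 7.62% of all genes were, and 9 higher in IT_C, where 6.68% were. With the animal as a block, which pairs the sums by the animal they come from, 29 members passed, the 18 among them. The share of all genes that passed with the block is not given here, so the rise is not read as particular to the members. KCNG3 was at 64.2 and 60.3 CPM in IT_A and 12.7 and 10.6 in IT_C (2.46 ± 0.20, adjusted p = 2.3e-08), the largest difference among members with at least 10 CPM in the higher subclass. KCNIP2 (118 and 112 against 44.3 and 39.7 CPM, 1.49 ± 0.12, adjusted p = 1.6e-08) and KCNAB1 (214 and 207 against 82.1 and 91.0 CPM, 1.31 ± 0.26, adjusted p = 0.00092) were also higher in IT_A. So were KCNG2 (1.45 ± 0.30, adjusted p = 0.0016) and KCNK3 (1.35 ± 0.27, adjusted p = 0.0011), at lower levels.

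Higher in IT_C were 4 of the 9 calcium- or sodium-activated members tested, and none of these was higher in IT_A. Among the 4, KCNMB1, with 151 UMIs in all labelled nuclei, lost its call under DESeq2. KCNN2 lost its call with no filter on low counts and with sums thinned to 1 depth. KCNT2 was at 614 and 656 CPM in IT_A and 1214 and 1360 in IT_C (-0.98 ± 0.12, adjusted p = 5.9e-06), and KCNMB4 at 171 and 168 against 289 and 328 CPM (-0.83 ± 0.14, adjusted p = 0.00029). KCNH5 differed likewise (305 and 301 against 683 and 587 CPM, -1.03 ± 0.13, adjusted p = 8.9e-06). IT_B lay outside the range between IT_A and IT_C for KCNH5 and KCNT2, where it was highest, and for KCNMB4, where it was lowest. KCNIP1 (-1.19 ± 0.28, adjusted p = 0.0049) and KCNAB3 (-0.76 ± 0.16, adjusted p = 0.0023) were also higher in IT_C, the first at 6.99 to 16.4 CPM, near the GABAergic marker background named above, whose part in the result was not tested.

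Among the 5 GABAergic subclasses 40 of 57 members differed, where 34.6% of all genes did. The sodium-activated pair KCNT1 (Slack) and KCNT2 (Slick) divided these subclasses in opposite directions, although Pvalb was above Sst in both genes. KCNT2 was at 3235 and 2985 CPM in Frem1, 2504 and 2590 in Vip and 2160 and 2719 in Lamp5, and at 190 and 173 in Pvalb and 78.4 and 84.5 in Sst (joint adjusted p = 3.1e-16). KCNT1 was at 682 and 614 CPM in Pvalb and 204 and 165 in Sst, and at 30.5 to 84.5 in the other 3 (joint adjusted p = 1.7e-13). For both genes Pvalb and Sst stood on one side and Vip, Lamp5 and Frem1 on the other, without overlap. Over all 13 neuronal subclasses their Spearman correlation was -0.81 in animal 1 and -0.69 in animal 2, a description over subclasses that share libraries and differ in depth.

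Other members singled out 1 or 2 interneuron subclasses. KCNH8 was high in Lamp5 and Sst, as given above (joint adjusted p = 4.7e-11). KCNH5 was highest in Sst, at 344 and 348 CPM, and lowest in Frem1 and Vip, at 18.7 to 30.5 CPM (joint adjusted p = 2.9e-13). KCNA3, a Kv1 subunit, was at 42.3 and 33.5 CPM in Sst and at most 16.3 in any other sum. KCNH7 was at 1265 and 1168 CPM in Pvalb and 1030 and 1070 in Vip, and at 70.3 and 107 in Lamp5 (joint adjusted p = 4.7e-12). KCNC4, the second Kv3 member, was at 61.6 and 63.1 CPM in Vip and lowest in Pvalb, at 15.1 and 6.77, where KCNC1 was highest. KCNK10 was highest in Vip (136 and 102 CPM) and lowest in Lamp5 (11.3 and 7.75 CPM, joint adjusted p = 1.5e-08). By contrast KCNIP1, so different between the classes, ranged only from 463 to 944 CPM among GABAergic subclasses (joint adjusted p = 0.079).

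Pvalb neurons, the fast-spiking interneurons, were compared with the other GABAergic subclasses. Here 17 members were higher, where 14.7% of all genes were, and 11 lower, where 9.77% were. KCNC1 was at 815 and 878 CPM, against 482 and 478 in Vip, the next highest (1.43 ± 0.09 against the mean of the 4, adjusted p = 1.3e-10). KCNT1 differed by more, at 682 and 614 against 104 and 88.2 CPM (2.99 ± 0.11, adjusted p = 3.2e-14). KCNG3, a silent subunit, was at 76.8 and 68.4 against 14 and 13.8 CPM (2.99 ± 0.18, adjusted p = 5.6e-11), and KCNAB1 at 1247 and 929 against 252 and 253 CPM (2.29 ± 0.18, adjusted p = 2.7e-09). In both animals these 4 genes were above every other GABAergic subclass.

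That was not so for KCNK12 and KCNMB2. KCNK12 was at 78.2 and 101 CPM in Pvalb (2.32 ± 0.21, adjusted p = 2.0e-08) but at 94.8 and 90.6 in Vip. KCNMB2 was at 59.5 and 49.7 CPM in Pvalb but at 69.3 and 42.2 in Sst. Its log2 fold change of 3.15 ± 0.34 (adjusted p = 3.3e-07) was 2.67 in animal 1 alone and 6.11 in animal 2 alone, where Lamp5 and Frem1 held no UMI. KCNK3 (145 and 140 CPM) was likewise highest in Pvalb among GABAergic neurons, and lowest in Lamp5 (10.5 and 8.53 CPM, joint adjusted p = 1.2e-07).

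Lower in Pvalb were KCNH8 (-3.12 ± 0.40, adjusted p = 3.6e-06), KCNT2 (-2.58 ± 0.12, adjusted p = 7.2e-13), KCNQ5 at 40.1 and 43.2 against 270 and 359 CPM (-2.44 ± 0.20, adjusted p = 7.5e-09), the silent subunit KCNS2 (-2.02 ± 0.23, adjusted p = 8.4e-07) and KCNC4 (-1.32 ± 0.29, adjusted p = 0.0017). Sst was below Pvalb in KCNT2 and had 64.5 and 79.9 CPM of KCNQ5, so these levels were shared by both subclasses, whereas KCNS2 was at 20.9 and 22.1 CPM in Sst and 5.11 and 3.39 in Pvalb.

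**Figure D3:**
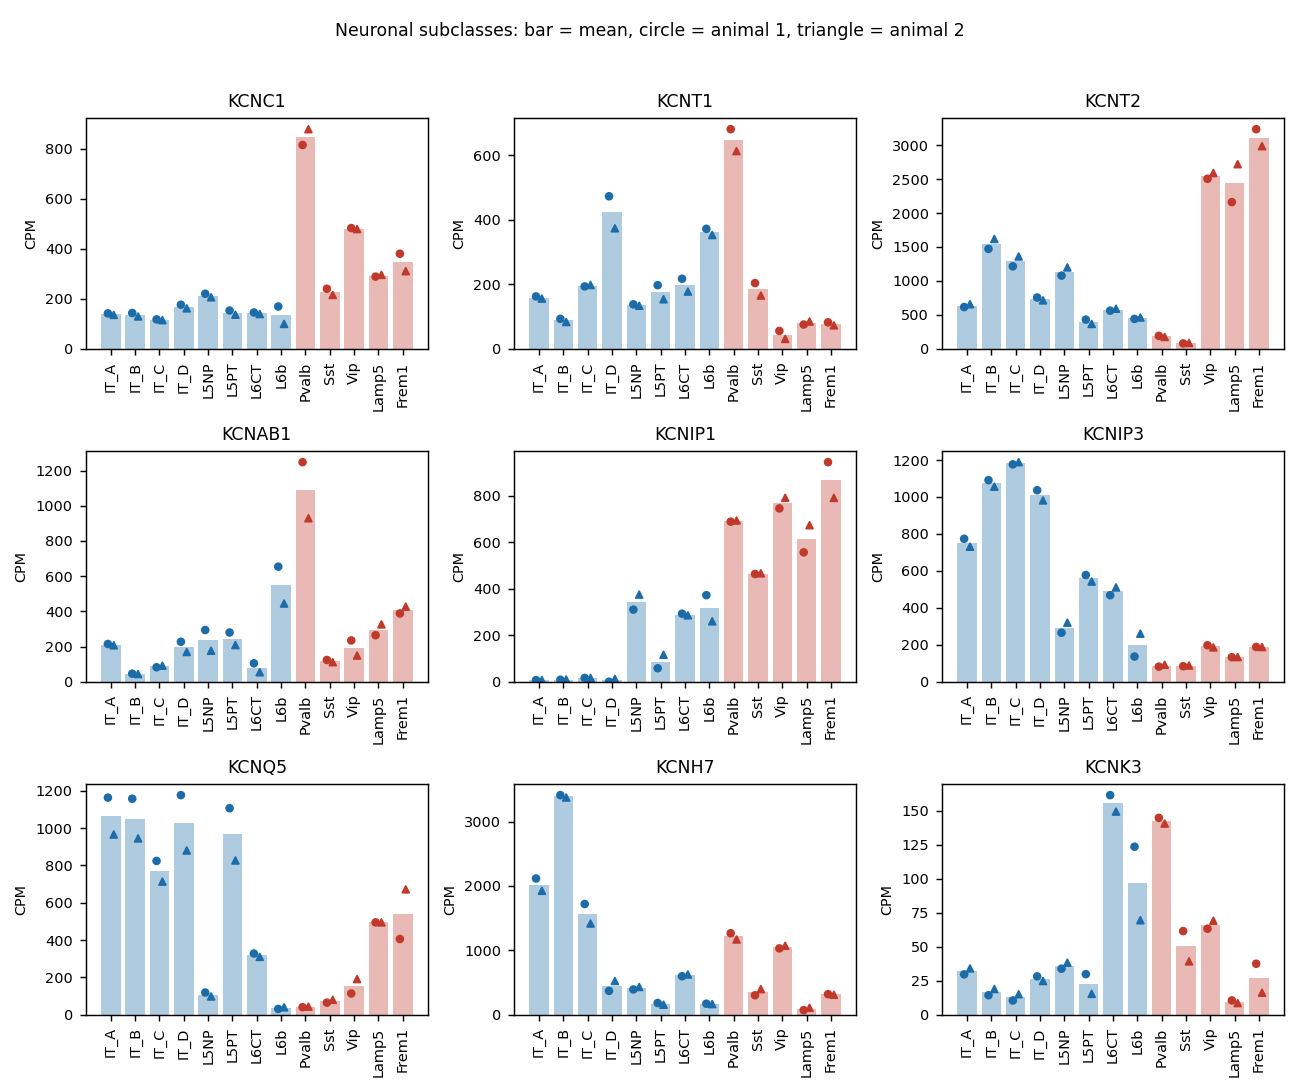
Levels in CPM (y axes, linear from 0) of 9 members in the 13 neuronal subclasses (x axes). Bars are the mean of 2 animals, circles animal 1 and triangles animal 2. KCNC1 and KCNT1 peak in Pvalb, KCNT2 in Frem1, Lamp5 and Vip, KCNIP3 in the IT subclasses and KCNH7 in IT_B.

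Members also vary among the finer types that the authors defined within a subclass. Types with at least 30 nuclei in each animal are described here, without a test. Pvalb_5, with 110 and 99 nuclei, stood apart from other Pvalb types in several members. Its KCNG3 level was 2.63 and 1.50 CPM, against 98.2 and 89.6 in Pvalb_1. Its KCNT2 level was 1050 and 1047 CPM, against 53.8 and 33.8 in Pvalb_3. KCND2 was at 297 and 246 CPM in Pvalb_5 and 3685 and 4069 in Pvalb_4, and KCNH7 at 2778 and 2320 in Pvalb_5, 1974 and 1767 in Pvalb_1, and 427 and 373 in Pvalb_4. KCNT1, like KCNT2 and KCNH7, was highest in Pvalb_5, at 998 and 1215 CPM, against 426 and 381 in Pvalb_6. Within IT_A, KCNAB1 ranged from 399 and 439 CPM in IT_A_5 to 48.4 and 50.6 in IT_A_4, while KCNH5 ran the other way, from 479 and 552 in IT_A_4 to 98.8 and 86.8 in IT_A_5. KCNH1 followed the second order (1651 and 1743 in IT_A_4, 379 and 266 in IT_A_5). In each of these contrasts the values of both animals were close beside the gap between types.

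**Figure D4:**
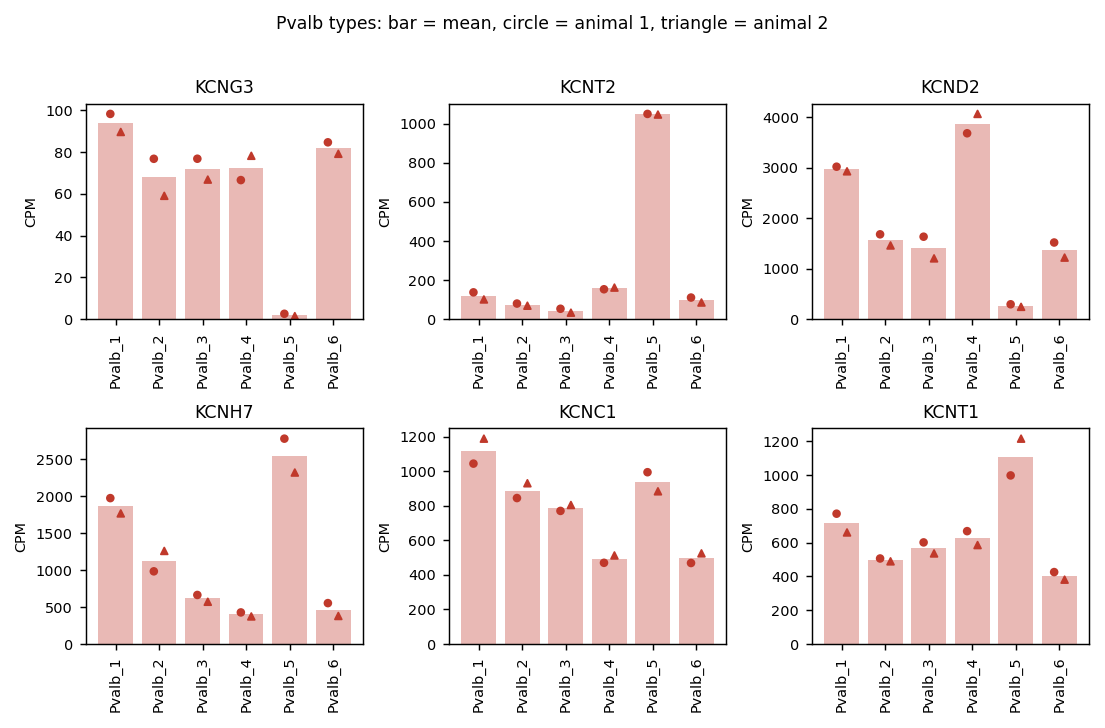
Levels in CPM (y axes, linear from 0) of 6 members in the types Pvalb_1 to Pvalb_6 (x axes), with bars for the mean of 2 animals, circles for animal 1 and triangles for animal 2. Pvalb_5 is lowest in KCNG3 and KCND2 and highest in KCNT2, KCNH7 and KCNT1, with Pvalb_1 next in KCNH7.

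Neurons were then compared with non-neuronal cells. With all 18 subclasses, 43 of 58 members were higher in neurons, where 30.2% of all genes were, and 1 lower, where 14.6% were. Endothelial cells held no UMI of many members, and 26 members had a subclass at 0 in both animals, so that their fitted change rests on the prior count. Without the subclasses of under 100 nuclei in an animal (IT_D, L6b and endothelial cells), 43 of 60 members were higher in neurons, where 33.7% of all genes were, and 5 lower, where 27.2% were. The median log2 fold change was 1.62 over the members and 0.11 over all genes in that fit, against 2.14 and 0.44 with every subclass. DESeq2 on all subclasses gave 6 lower, and the share of all genes lower under DESeq2 is not given here. The counts of neurons include nuclei with several times more UMIs: the median was 7794 and 8753 per nucleus in IT_A and 1924 and 1909 in oligodendrocytes.

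KCNT1, without the small subclasses, was higher in neurons by 3.23 ± 0.10 (adjusted p = 3.4e-19), at 13.4 to 18.6 CPM in astrocytes, OPC, oligodendrocytes and microglia. KCNH2 was higher by 2.54 ± 0.22 (adjusted p = 2.1e-10), KCNS2 by 2.41 ± 0.17 (adjusted p = 1.1e-11), and KCNA1 by 1.93 ± 0.11 (adjusted p = 1.6e-13). KCNH1, with a UMI in every subclass, was higher by 3.64 ± 0.08 over all of them (adjusted p = 4.5e-24). Its level in the 4 main glial subclasses, 47.6 to 92.5 CPM, was 2.02% to 3.49% of that in IT_B, no higher than the shares of the neuronal markers NEUROD2 and TBR1 given above, and so cannot be told apart from the neuronal RNA in glial sums. KCNT2 in glia was at 2.09% to 2.66% of its level in Frem1. Lower in neurons without the small subclasses were KCNJ10 (-4.13), KCNJ2 (-1.98), KCNH8 (-1.41), the beta subunit KCNE2 (-0.90) and KCNG2 (-0.89). These signs are of averages of logarithms over subclasses and do not hold for each subclass. In KCNH8, Lamp5 and Sst neurons, at 46.8 to 98.5 CPM, were above OPC, at 35.6 and 41.1 CPM. In KCNG2, OPC and oligodendrocytes, at 1.02 to 5.21 CPM, were below L5PT and L5NP, at 70.5 to 105 CPM, and microglia and astrocytes were above them. In KCNJ2, astrocytes, at 1.14 and 0.810 CPM, were below IT_A, at 8.73 and 11.2 CPM, and microglia were highest.

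Within the non-neuronal class 39 of 47 members differed among subclasses, where 68.9% of all genes did. Astrocytes are known to buffer potassium. KCNJ10, the channel of that function, was at 76.4 and 98.4 CPM in astrocytes, 43.0 and 35.9 in oligodendrocytes, 19.0 and 17.4 in OPC and 3.77 and 9.57 in microglia, and at most 4.61 in any neuronal sum. Against the other non-neuronal subclasses without endothelial cells it was higher by 2.40 ± 0.18 (adjusted p = 3.8e-08). Its usual partner KCNJ16 was at 0.285 and 1.21 CPM in astrocytes, below its 9.48 and 9.33 in OPC and 7.16 and 6.81 in oligodendrocytes.

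Of 47 members, 17 were higher in astrocytes, where 23.5% of all genes were, and 6 lower, where 11.1% were. Without endothelial cells 16 of 48 were higher, where 24.0% of all genes were, and 13 lower, where 19.8% were. With endothelial cells included, the Kv4 subunit KCND2 was higher by 3.02 ± 0.12 (adjusted p = 4.3e-15), at 2768 and 2689 CPM, inside the neuronal range and 59.3% of its level in Sst. KCNQ5 was higher by 3.26 ± 0.14 (adjusted p = 2.0e-14), at 669 and 827 CPM in astrocytes and 43.4 to 102 CPM in OPC, oligodendrocytes and microglia. The Kv3 subunit KCNC4 was at 48.5 and 37.2 CPM, higher by 2.22 ± 0.26 without endothelial cells (adjusted p = 5.3e-06). The small-conductance calcium-activated channels KCNN2 (432 and 422 CPM) and KCNN3 (307 and 338 CPM) were also high. In KCNN3 the IT_D value of animal 1, 317 CPM, reached the astrocyte level. KCNG2 was called higher in astrocytes (3.24 ± 0.24, adjusted p = 2.1e-10) although its mean CPM over the other subclasses was larger, 261 and 196 against 132 and 152, because the test averages logarithms and microglia alone were higher.

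With endothelial cells included, lower in astrocytes were, among others, KCNJ2 (-3.28 ± 0.61, adjusted p = 0.00016), KCNJ3 (-1.68 ± 0.19, adjusted p = 1.6e-07), KCNK9 (-1.45 ± 0.30, adjusted p = 0.00053) and KCNH7 (-1.19 ± 0.17, adjusted p = 5.8e-06). Endothelial cells held KCNJ2 in libraries 1B and 2B only, so the size of its change rests in part on few UMIs. KCNJ3, a G-protein-gated inward rectifier, was at 73.3 and 88.6 CPM in astrocytes and at 621 and 579 in OPC, beside 588 and 521 in Sst neurons.

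Oligodendrocyte precursors divide and receive synapses, and oligodendrocytes form myelin. In this pair of stages of 1 lineage, 26 of 47 members were higher in OPC, where 24.9% of all genes were, and 5 higher in oligodendrocytes, where 18.8% were. The median log2 fold change was 1.41 over the members and 0 over all genes. KCNH7 was at 1475 and 1379 CPM in OPC and 82.5 and 131 in oligodendrocytes (3.66 ± 0.18, adjusted p = 3.1e-13), and the OPC level was above that of every GABAergic subclass. KCNIP1 was at 343 and 304 against 20.7 and 34.8 CPM (3.47 ± 0.20, adjusted p = 2.8e-12), and KCND2 at 1315 and 1443 against 133 and 188 CPM (3.02 ± 0.17, adjusted p = 2.1e-12). KCNA3 was at 16.1 and 15.6 against 1.43 and 0.262 CPM (3.95 ± 0.54, adjusted p = 3.3e-06). KCNG1 was called too (3.87 ± 0.50, adjusted p = 1.7e-06), although its OPC level of 49.8 CPM in animal 1 was 13.7 in animal 2.

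Oligodendrocytes were higher in KCNG3, at 16.6 and 18.8 against 1.90 and 3.73 CPM (log2 fold change, OPC minus oligodendrocytes, -2.77 ± 0.45, adjusted p = 3.2e-05). KCNJ9, a G-protein-gated inward rectifier, was at 266 and 185 CPM in oligodendrocytes and 55.5 and 51.0 in OPC (-2.16 ± 0.20, adjusted p = 5.2e-09), and no neuronal sum exceeded 132 CPM. KCNJ9 lies next to KCNJ10 in the gene order of mMonDom1, and both were higher in oligodendrocytes than in OPC (KCNJ10 -1.20 ± 0.24, adjusted p = 0.00026). How reads were shared between these neighbors was not tested, nor was it examined whether the authors extended the 3′ end of either gene. KCNA1, a subunit of axonal Kv1 channels, was at 43.6 and 48.2 CPM in oligodendrocytes and 20.4 and 16.8 in OPC (-1.37 ± 0.25, adjusted p = 0.00011). KCNMB4 was the fifth (-0.73 ± 0.18, adjusted p = 0.0022).

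Microglia, the resident immune cells, had 5 members at their highest level, although a microglial sum held few UMIs (530271 in animal 1). KCNG2, a silent subunit, was at 1018 and 777 CPM, against 132 and 152 in astrocytes and at most 105 elsewhere (joint adjusted p = 1.2e-16). All 4 libraries showed it, at 996, 1044, 796 and 758 CPM. Of its neighbors in the gene order of mMonDom1, SLC66A2 was also high in microglia (417 and 405 CPM, against 146 and 147 in IT_A) and CTDP1 was not set apart (132 and 129 CPM, against 97.8 and 91.5 in IT_A). KCNIP2 was at 264 and 271 CPM in microglia and at most 181 elsewhere. KCNJ2, the strong inward rectifier, was at 54.7 and 65.4 CPM, and at no more than 20.6 in any other subclass, that value being 1 UMI in endothelial cells. KCNE3 was at 33.9 and 28.7 CPM, and at most 0.767 in any other sum. The glutamatergic markers summed to 53.4 CPM and the GABAergic ones to 29.8 CPM in microglia, near or at the upper end of the glial values, and KCNJ2 was at no more than 11.2 CPM in any neuronal sum.

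**Figure D5:**
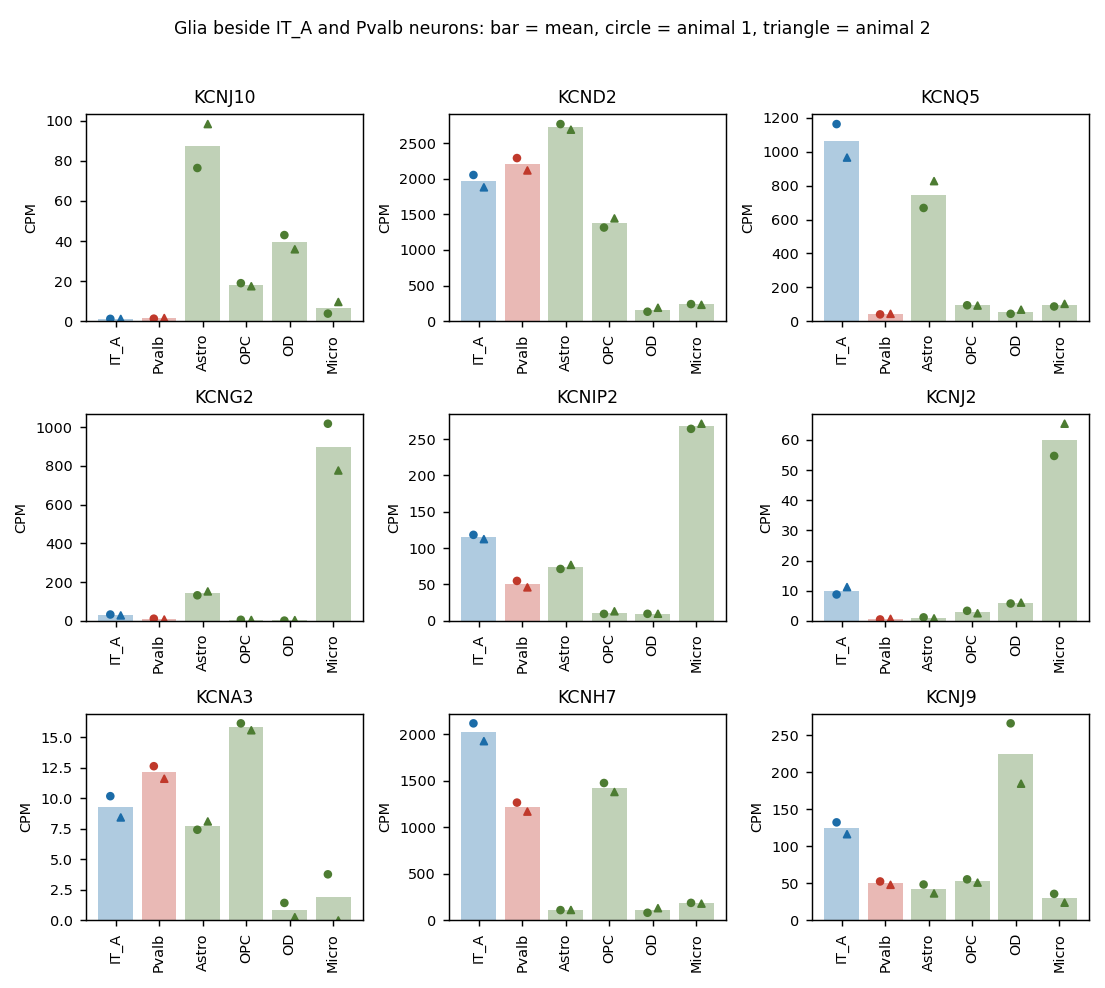
Levels in CPM (y axes, linear from 0) of 9 members in IT_A, Pvalb, astrocytes, OPC, oligodendrocytes and microglia (x axes), with bars for the mean of 2 animals, circles for animal 1 and triangles for animal 2. KCNJ10, KCND2 and KCNQ5 are high in astrocytes, KCNH7 and KCNA3 in OPC, KCNJ9 in oligodendrocytes, and KCNG2, KCNIP2 and KCNJ2 in microglia.

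Endothelial cells gave little: 29 and 36 nuclei with a floor of 61.8 and 51.8 CPM. KCNJ3 was at 1051 and 484 CPM there, above the floor in both animals. KCNJ8, a channel of pericytes in other species, had 13 UMIs in all labelled nuclei, and no subclass of pericytes was labelled.

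Other genes that work with these channels were read from a list of 16, such as the Kv4 partners DPP6 and DPP10. A symbol was present for 11 and a test in neurons for 10, of which 8 differed between glutamatergic and GABAergic neurons, 5 higher and 3 lower in glutamatergic ones, where 22.0% and 20.8% of all genes were. Across the neuronal subclasses KCND2 and DPP10 had Spearman correlations of 0.64 and 0.55, whereas KCND2 and KCNIP1 had -0.26 and 0.01. The G-protein-gated subunits KCNJ6 and KCNJ9 had 0.75 and 0.63, and KCNJ3 and KCNJ6 -0.23 and -0.06. All are descriptions over 13 subclasses of the same libraries.

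Finally, the animals were set side by side as 1 against 1, without a test. Of 37 members with enough UMIs, 20 had a median difference over subclasses within 0.1 on the log2 scale, and the 6 named next were furthest apart. The largest difference was KCNN3, at 0.647 of its animal 1 level in animal 2, followed by KCNC4 (0.722), KCNG2 (0.742), KCND3 (0.766) and KCNH2 (0.794). KCNQ3 went the other way, at 1.35 times its animal 1 level, and was higher in animal 2 in 16 of 16 subclasses, in every one of which both libraries of animal 2 were above both of animal 1. For the other members named here, some subclasses went against the median. Animal 2 was higher in 4 of 16 subclasses for KCNN3, 2 of 14 for KCNC4 and 1 of 9 for KCNG2. It was higher in 4 of 17 for KCND3 and 4 of 12 for KCNH2. Age, and the experimenter if each handled 1 animal, cannot be told apart from the animal.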

How the data were processed

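The authors deposited raw UMI counts per gene and nucleus for 4 libraries, made with Cell Ranger (6.1.1 in the submitters' processing notes, 7.1.0 in the matrix headers) on ASM229v1 with Ensembl gene models whose 3′ ends they extended and with intronic reads included, beside a table of subclass and type for each nucleus and Scrublet's doublet calls. Intronic reads raise the counts of long genes, and extension can assign reads to a neighbor. Counts were summed per animal and subclass over 32764 labelled nuclei (798 of them scored as doublets were kept). Left out were 2315 nuclei in clusters that the authors marked as ambiguous or as doublets, and barcodes with no class. Sums were tested with edgeR 4.0.16 in R 4.3.3 (quasi-likelihood, TMM, filterByExpr), 1 coefficient per subclass, in fits of neuronal, non-neuronal and all subclasses. Contrasts are means of log coefficients, adjusted over all genes at 0.05. The procedure was run on simulated counts that had the same spread for every gene and no effect shared within an animal. That run therefore cannot show how the tests behave when sums are paired by animal. The 2 animals pair the sums, since each gave every subclass. An animal's deviations from the subclass means had a median correlation of 0.152 over pairs of neuronal subclasses (range 0.0278 to 0.5985). Over non-neuronal ones it was 0.0669 (range 0.0214 to 0.1737). The main tests did not use this pairing.

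Alternatives were DESeq2 1.42.0, its size factors, no filter, the animal as a block, sums thinned to 1 depth, doublets removed, small subclasses left out, 1 animal left out and means over nuclei. Full values are given for the 5 members with the largest change in each direction (called, same direction in both animals, at least 10 CPM in the higher group), the 8 with the largest ratio in each joint comparison, and further members by family. The members and lists were chosen with earlier results of these data known. Some of these members are not reported here.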

Additional observations from a re-analysis of the deposited data

Results flagged for a closer look

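KCNH8, an ELK channel of the ether-a-go-go family, was high in nuclei that the authors set aside and that enter no comparison above. In the nuclei they called ambiguous GABAergic it stood at 122 CPM in animal 1 (79 UMIs, 302 nuclei) and 130 CPM in animal 2 (143 UMIs, 428 nuclei). Its highest labelled subclass, Lamp5, had 98.5 and 83.7 CPM. The difference was not tested, and no reason for it was examined.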

How the results depend on the processing

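The animal as a replicate block raised the members called between IT_A and IT_C from 18 to 29, and no member's call in any comparison was lost with it. How far the block raised the calls over all genes is not given here. Thinning each sum to the lowest total of its fit left fewer members testable. In L5PT 14 were called (of 43 tested), and of the 24 called before, 5 were not tested and 5 were tested and lost. In the fits with endothelial cells 11 or 25 members stayed testable, with 11 called among non-neuronal subclasses (of 11), 10 for astrocytes (of 11), 8 for OPC against oligodendrocytes (of 11) and 19 for neurons against non-neuronal cells (of 25). The members reaching 10 CPM numbered 50, and 51 without replicate 1 and 51 without replicate 2. In the comparisons with a direction, of 578 values of named members under the alternatives, none reversed, and 7 lost the call: under thinning KCNK3 (1.17), KCNIP1 (-1.08) and KCNAB3 (-0.59) between IT_A and IT_C, KCNK3 in L5PT (-0.82), and KCNMB2 (-2.50) and KCNH8 (-2.22) between the neuronal classes, and without the small subclasses KCNK3 in L5PT. In the joint test among glutamatergic subclasses KCNH8 lost its call without the small ones. With 1 animal no test is possible, so those values keep a direction only. Endothelial depth limits every comparison that includes that subclass.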
